A study of Arabidopsis thaliana with 12 samples.

Results

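*Aux/IAA* and *GH3* genes include many that auxin itself induces. 34 of them were followed here through 12 RNA-seq libraries of *Arabidopsis* seedlings, out of 32824 genes in the expression tables. The members were taken by gene identifier and not by a cutoff on their values, though earlier results of these data were known. They are 28 Aux/IAA genes and 6 GH3 genes whose enzymes conjugate auxin to amino acids, *GH3.1*, *GH3.2*, *GH3.3*, *GH3.5*, *GH3.6* and *GH3.17*. Whole seedlings of *rev-5*, *wox4* and the Col-0 wild type were grown under continuous light. After 2 days of white light (WL) they received far-red light on top of it for 8 days, which simulates shade (WL+FR), or stayed in WL. There were 2 biological replicates for each genotype in each light, so every comparison of groups rests on 2 libraries against 2. REVOLUTA (REV), mutated in *rev-5*, is a homeodomain leucine zipper protein of class III that acts in leaf polarity and vascular patterning, and WUSCHEL-RELATED HOMEOBOX4 (WOX4) is a homeobox factor of the vascular cambium.

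Aux/IAA proteins are short-lived repressors. They bind auxin response factors (ARFs) on the promoters of auxin-regulated genes and recruit TOPLESS co-repressors there, and auxin acts as a glue between their degron and the TIR1/AFB receptors, which leads to their destruction. Many *Aux/IAA* and *GH3* genes are in turn activated by the ARFs that are set free, which closes a negative feedback loop: the new repressors dampen the signal, and the GH3 enzymes remove free auxin by conjugation. In shade, phytochrome-interacting factors (PIFs) accumulate and activate *YUCCA* genes for auxin synthesis, and these 2 gene families are classical readouts of the auxin that follows.

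Expression is given as TPM, the share of each gene among all transcripts of a library after division by its length, scaled from the deposited FPKM, so levels of different genes are per length. Differences are log2 fold changes of TPM + 1 with their standard error, which understates changes of genes near 1 TPM, and adjusted p values are those of limma, Benjamini-Hochberg adjusted over 20020 tested genes. A gene is called at an adjusted p under 0.05. In the libraries themselves the relative depth, read from the confidence bounds of the FPKM values, ranged only between 0.904 and 1.003, and the 10 most abundant genes took 12.9 to 14.33% of all TPM in WL+FR against 17.57 to 18.65% in WL. The median log2 change of all tested genes between WL+FR and WL was 0.11 in *rev-5*, 0.13 in the libraries labelled *wox4* and 0.08 in Col-0, and quantile normalization moved it to -0.01, -0.02 and -0.02. The shade marker *PIL1* had 20.26 to 26.31 TPM in WL+FR against 0.27 to 1.45 TPM in WL. *REV* had 6.29 to 6.75 TPM in *rev-5* and 6.0 to 6.96 TPM in Col-0, where an allele with an amino acid exchange cannot be checked by its level. *WOX4* had 111.97 to 148.96 TPM in the 4 libraries labelled *wox4*, against 1.92 to 3.93 TPM in Col-0, with a log2 fold change of 5.05 in WL (adjusted p = 1.57e-06, limma). A loss-of-function label goes with a higher level of the gene here, so these libraries are called by their label throughout.

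The repressors were split by the degron, the stretch that the receptors bind together with auxin. Its core is the run of residues glycine, tryptophan, proline, proline, encoded by the codons GGN, TGG, CCN and CCN. An in-frame match was found in the annotated coding sequence of 22 of the 28 *Aux/IAA* genes (78.6%) and of 34 of 27444 protein-coding genes (0.124%). *IAA20*, *IAA30*, *IAA31*, *IAA32*, *IAA33* and *IAA34* had no match. The 36-base stretches around the core follow for the 7 repressors with the largest called response to shade in Col-0 and for *IAA28* and *IAA18*, chosen after their values were seen as members that carry the same core and were not called. Sequences run 5′ to 3′ on the coding strand and are from the TAIR10.1 genome (RefSeq), and capitals mark the core.
IAA29 (chr4:15583942-15583977, plus strand): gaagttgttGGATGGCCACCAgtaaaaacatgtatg
IAA6 (chr1:19673317-19673352, minus strand): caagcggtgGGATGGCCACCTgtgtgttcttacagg
IAA19 (chr3:5264307-5264342, plus strand): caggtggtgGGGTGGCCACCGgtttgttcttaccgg
IAA1 (chr4:8361436-8361471, plus strand): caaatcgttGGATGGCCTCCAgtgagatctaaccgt
IAA2 (chr3:8181381-8181416, minus strand): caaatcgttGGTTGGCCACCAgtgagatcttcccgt
IAA7 (chr3:8195568-8195603, plus strand): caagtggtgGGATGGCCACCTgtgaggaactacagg
IAA14 (chr4:8349472-8349507, minus strand): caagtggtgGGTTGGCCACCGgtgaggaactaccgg
IAA28 (chr5:9033812-9033847, plus strand): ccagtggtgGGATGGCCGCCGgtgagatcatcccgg
IAA18 (chr1:19306231-19306266, plus strand): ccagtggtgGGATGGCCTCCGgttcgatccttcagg
The stretches of *IAA1* and *IAA2* share 32 of 36 bases, those of *IAA7* and *IAA14* share 33, and that of *IAA28* shares 32 with *IAA17*. Among the 22, the stretch of *IAA29* stood furthest from its nearest relative but for *IAA10*, with 27 bases shared with *IAA27*, against 26 shared by *IAA10* and *IAA11*.

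The 34 members spanned the whole range of expression. *IAA7* had the highest mean over all libraries (199.43 TPM), followed by *IAA2* (150.46 TPM) and *IAA8* (134.61 TPM), and these lay at the 96.7th, 95.7th and 95th percentile of the tested genes. At the other end, *IAA11*, *IAA32* and *IAA34* were listed at 0 in all 12 libraries, and *IAA20* and *IAA31* had means of 0.38 and 0.20 TPM. A 0 in these tables can be a failed estimate. *IAA11* overlaps *AT4G28650* and *IAA32* overlaps *AT2G01210* on the opposite strand, and *IAA34* overlaps *AT1G15060* on its own strand, and whether reads were counted by strand is not stated. These 5 members fell under the minimum mean of 0.5 TPM, so 29 members were tested, 21 *Aux/IAA* genes with the core, 2 without it and all 6 *GH3* genes.

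The most abundant repressors stood in a different order in the 2 lights. In Col-0 in WL+FR, *IAA7* stood at 260.20 and 271.55 TPM and *IAA2* at 209.46 and 246.97 TPM, above *IAA8* at 143.90 and 156.87 TPM. In WL, *IAA7* (127.92 and 125.29 TPM) could not be told from *IAA8* (133.23 and 116.73 TPM), and *IAA2* (83.84 and 82.04 TPM) lay below *IAA9* (108.24 and 107.60 TPM) and *IAA16* (87.54 and 95.99 TPM). Summed over the 28 genes, *Aux/IAA* transcripts made up 1382.1 to 1543.5 TPM in the 6 WL+FR libraries and 832.0 to 892.6 TPM in the 6 WL libraries. The 6 *GH3* genes summed to 279.3 to 298.9 TPM in WL+FR and 164.4 to 188.7 TPM in WL. The 6 repressors without the core added at most 5.0 TPM in any library. In whole seedlings, fewer cells of a type and less RNA per cell cannot be told apart. The marker levels below have the same limit.

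After 8 days of WL+FR, 18 of the 29 tested members rose in *rev-5*, where 11% of all tested genes were called higher. In the libraries labelled *wox4* 19 members rose, where the share over all genes was 15.4%, and in Col-0 19 rose, where it was 13.3%. No member was called lower in any genotype, where 2.83% (*rev-5*), 3.44% (*wox4*) and 4.41% (Col-0) of all tested genes were. At shares this low few calls would fall among 29 members, so the 0 does not set them apart. At an unadjusted p under 0.05 limma also gave 0 members lower, and voom called 0. 18 members were called higher in all 3 genotypes. The share of all tested genes called higher in all 3 was not computed and cannot exceed the 11% of *rev-5*. The median log2 change of the 29 members was 0.53 in *rev-5*, 0.58 in *wox4* and 0.70 in Col-0, which after quantile normalization became 0.42, 0.44 and 0.58. Both replicates in WL+FR exceeded both in WL for 23 members in *rev-5*, 28 in *wox4* and 24 in Col-0, against 41.8%, 45.8% and 38.6% of all tested genes. At a stricter threshold, an adjusted p under 0.01 and more than a 2-fold change, 6, 7 and 6 members were called, against 0.769%, 1.24% and 1.38% of all tested genes.

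**Figure D1:**
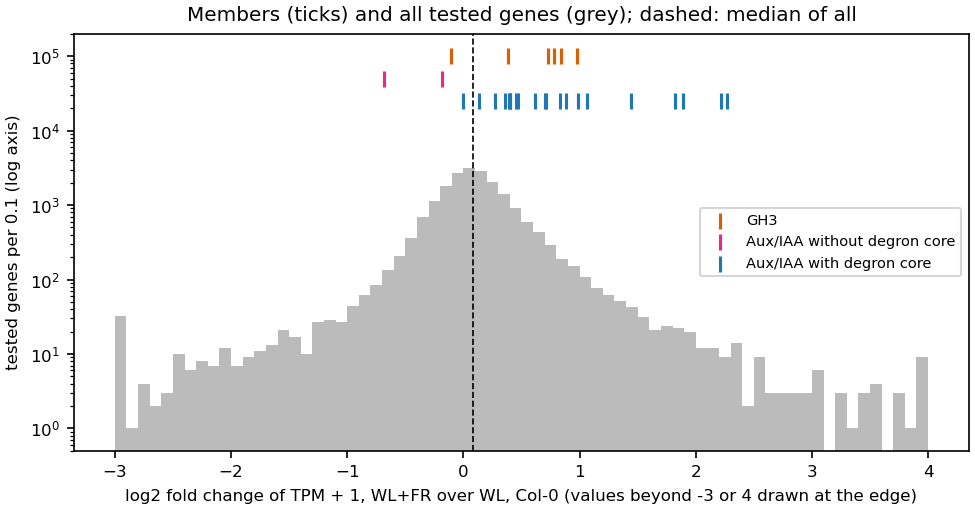
Log2 fold change of TPM + 1 in Col-0, WL+FR over WL, for all 20020 tested genes (grey bars, number of genes per 0.1 on a log axis) and for the 29 tested members (ticks, 1 row each for GH3 genes, Aux/IAA genes without the degron core and Aux/IAA genes with it). The ticks of the genes with the core reach 2.27 and none of the 21 lies below 0.00, while the dashed line marks the median of all tested genes at 0.08.

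The strongest responses belonged to repressors. Gene positions are those of TAIR10, as in the deposited tables, and span exons and introns. *IAA29* (AT4G32280, chr4:15583332-15584903) is a repressor gene induced by PIFs in low light. It had 54.85 and 50.30 TPM in *rev-5* in WL+FR against 10.74 and 12.37 TPM in WL. The libraries labelled *wox4* had 52.34 and 54.99 TPM in WL+FR against 10.91 and 14.70 TPM in WL. Col-0 had 41.84 and 43.19 TPM in WL+FR against 10.17 and 6.24 TPM in WL. The light groups were far apart in each genotype, and the Col-0 libraries were the lowest in WL+FR. The log2 fold change was 2.09 ± 0.19 in *rev-5*, 2.0 ± 0.19 in *wox4* and 2.27 ± 0.19 in Col-0 (SE; limma, highest adjusted p = 0.000101).

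*IAA6* (AT1G52830, chr1:19672476-19673652), a close relative of *IAA19*, had a response of similar size from a much lower level. It had 7.44 and 7.14 TPM in *rev-5* in WL+FR against 0.54 and 1.62 TPM in WL, 9.07 and 9.59 TPM in *wox4* in WL+FR against 1.91 and 2.64 TPM in WL, and 9.27 and 7.74 TPM in Col-0 in WL+FR against 1.01 and 1.07 TPM in WL. No library in WL came near one in WL+FR, although the values in WL may rest on as few as 3 fragments if the bounds hold counting error only. The log2 fold change was 2.04 ± 0.23 in *rev-5*, 1.66 ± 0.23 in *wox4* and 2.22 ± 0.23 in Col-0 (limma, adjusted p = 0.000401, 0.00102 and 0.000178). In *rev-5* the call was lost when only its own 4 libraries were fitted (adjusted p = 0.0521). In Col-0 the mean of *IAA6* was 8.51 TPM in WL+FR and 1.04 TPM in WL, against 42.52 and 8.21 TPM for *IAA29*. The fold in Col-0 was thus larger for *IAA6* than for *IAA29* when 1 was not added.

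*IAA19* (AT3G15540, chr3:5264001-5265695), whose stabilised form (*msg2*) disturbs the bending of the hypocotyl, had 27.96 and 24.22 TPM in *rev-5* in WL+FR against 7.97 and 9.90 TPM in WL. It had 34.07 and 35.39 TPM in *wox4* in WL+FR against 13.36 and 11.67 TPM in WL. In Col-0 it had 32.60 and 31.25 TPM in WL+FR against 8.36 and 8.33 TPM in WL. *rev-5* was lowest in WL+FR and *wox4* highest in WL, and the log2 fold changes of 1.45 ± 0.11 in *rev-5* and 1.40 ± 0.11 in *wox4* stood beside 1.82 ± 0.11 in Col-0 (limma, highest adjusted p = 3.55e-05). Tested as differences from the response of Col-0 these were not called (limma, adjusted p = 0.521 and 0.644).

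*IAA1* (AT4G14560, chr4:8360996-8362033), an early auxin-induced repressor, had 31.90 and 28.54 TPM in *rev-5* in WL+FR against 10.12 and 11.45 TPM in WL, 34.57 and 35.06 TPM in *wox4* in WL+FR against 8.44 and 12.45 TPM in WL, and 29.22 and 36.53 TPM in Col-0 in WL+FR against 9.30 and 6.96 TPM in WL. The levels in WL+FR overlapped among the genotypes. Its log2 fold change was 1.41 ± 0.18 in *rev-5*, 1.67 ± 0.18 in *wox4* and 1.89 ± 0.18 in Col-0 (limma, highest adjusted p = 0.000906).

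*IAA2* (AT3G23030, chr3:8180646-8182095), the nearest relative of *IAA1*, had 199.22 and 201.07 TPM in *rev-5* in WL+FR against 78.95 and 84.35 TPM in WL. The levels were 224.85 and 225.37 TPM in *wox4* in WL+FR against 84.79 and 84.56 TPM in WL, and 209.46 and 246.97 TPM in Col-0 in WL+FR against 83.84 and 82.04 TPM in WL. It rose by a log2 fold change of 1.28 ± 0.07 in *rev-5*, 1.40 ± 0.07 in *wox4* and 1.44 ± 0.07 in Col-0 (limma, highest adjusted p = 3.98e-06). *IAA2* is the only one of the 5 largest responses in Col-0 that was also among the 10 most abundant members.

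*IAA7* (AT3G23050, chr3:8194606-8197161) and *IAA14* (AT4G14550, chr4:8347822-8350263) are close relatives whose stabilised forms block auxin responses of the shoot and the formation of lateral roots. *IAA7* had 240.37 and 250.29 TPM in *rev-5* in WL+FR against 130.25 and 124.33 TPM in WL, 283.37 and 293.84 TPM in *wox4* in WL+FR against 138.25 and 147.46 TPM in WL, and 260.20 and 271.55 TPM in Col-0 in WL+FR against 127.92 and 125.29 TPM in WL. The replicates lay close together, and the log2 fold changes were 0.94 ± 0.05 in *rev-5*, 1.01 ± 0.05 in *wox4* and 1.06 ± 0.05 in Col-0 (limma, highest adjusted p = 2.44e-06). *IAA14* had 52.55 and 52.06 TPM in *rev-5* in WL+FR against 35.36 and 32.12 TPM in WL, 52.40 and 47.80 TPM in *wox4* in WL+FR against 23.74 and 31.17 TPM in WL, and 56.35 and 48.27 TPM in Col-0 in WL+FR against 23.89 and 27.73 TPM in WL. All 3 genotypes reached a like level in WL+FR, and *rev-5* was the highest in WL. Its log2 fold change was 0.62 ± 0.13 in *rev-5*, 0.86 ± 0.13 in *wox4* and 0.99 ± 0.13 in Col-0 (limma, adjusted p = 0.0121, 0.00159 and 0.000652). In *rev-5* the call was lost without WL replicate 10, WL+FR replicate 11 or WL+FR replicate 12, with log2 fold changes of 0.55, 0.61 and 0.63, and in *wox4* when only its own 4 libraries were fitted (adjusted p = 0.0537).

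**Figure D2:**
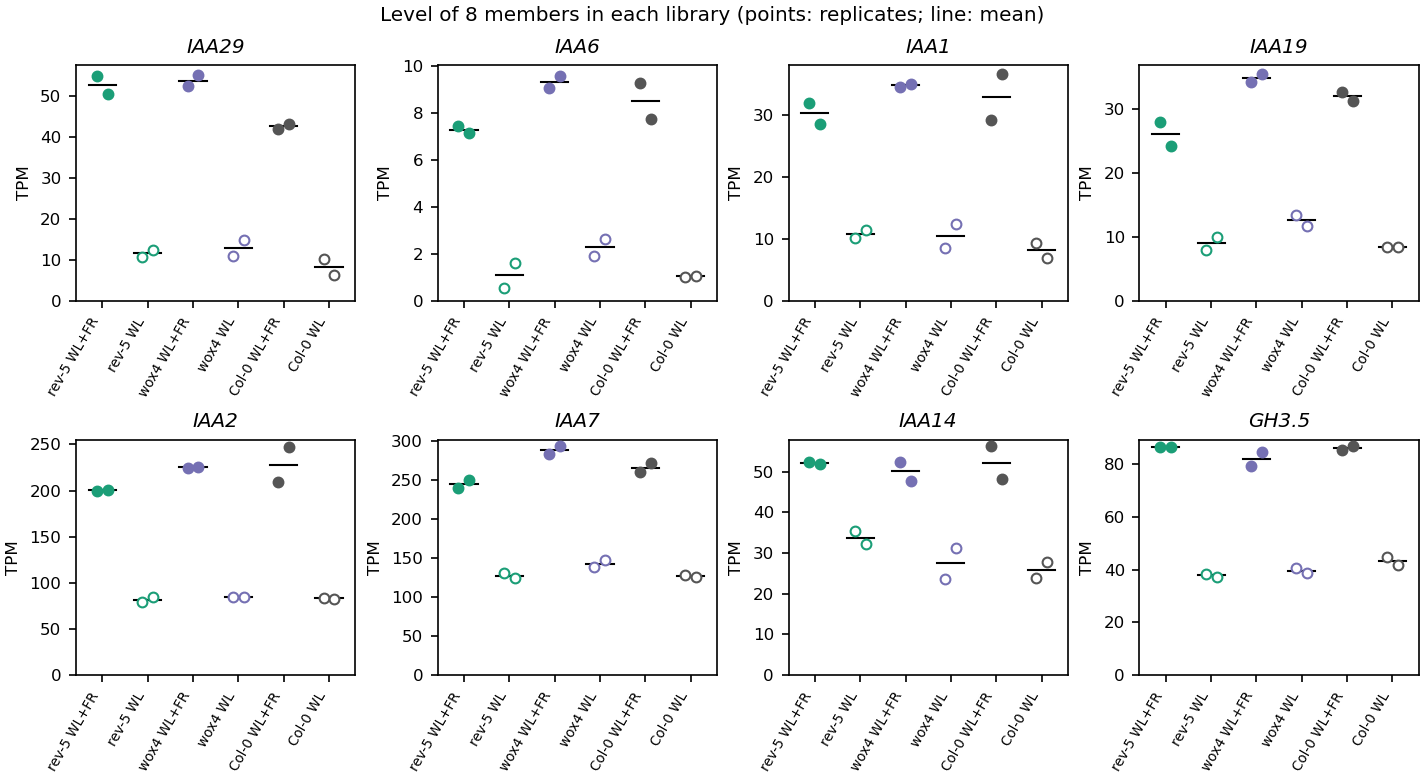
TPM in each library of the 8 members with the largest called response in Col-0, on linear axes from 0 (filled points: WL+FR; open points: WL; green: rev-5; violet: libraries labelled wox4; grey: Col-0; line: mean of 2 replicates). Each WL+FR point lies above each WL point of the same genotype, as for IAA29 with 41.84 to 54.99 TPM in WL+FR against 6.24 to 14.70 TPM in WL.

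Smaller rises were called in all 3 genotypes for 7 of the other 14 tested repressors with the core. *IAA17* had a log2 fold change of 0.61 in *rev-5*, 0.89 in *wox4* and 0.83 in Col-0, and *IAA3*, *IAA4*, *IAA13* and *IAA16* rose by 0.38 to 0.73 in each genotype. *IAA17* (*AXR3*) and *IAA3* (*SHY2*) are known from dominant mutants with altered root and light-grown growth. *IAA9* rose by 0.26 in *rev-5*, 0.49 in *wox4* and 0.39 in Col-0. In *rev-5* the call of *IAA9* was lost after quantile normalization (0.16), without WL replicate 10 (0.22), without WL+FR replicate 11 (0.23), without WL+FR replicate 12 (0.28), without the trend (adjusted p = 0.0688) and with only the compared groups (adjusted p = 0.0713). The call of *IAA13* in *wox4* was lost after quantile normalization (0.22), without WL replicate 5 (0.31) and without WL+FR replicate 8 (0.32). Fitting only the compared groups also lost the *wox4* call (adjusted p = 0.0684) and that of *IAA13* in *rev-5* (adjusted p = 0.0804).

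*IAA8* (AT2G22670, chr2:9636346-9638761), the third most abundant member, had the smallest called change in Col-0. It had 152.80 and 144.13 TPM in *rev-5* in WL+FR against 114.70 and 106.55 TPM in WL, 150.14 and 155.02 TPM in *wox4* in WL+FR against 124.32 and 116.94 TPM in WL, and 143.90 and 156.87 TPM in Col-0 in WL+FR against 133.23 and 116.73 TPM in WL. The light groups did not overlap, but WL replicate 1 of Col-0 came close to its WL+FR libraries. The log2 fold change was 0.42 ± 0.07 in *rev-5*, 0.34 ± 0.07 in *wox4* and 0.27 ± 0.07 in Col-0 (limma, adjusted p = 0.0046, 0.0112 and 0.0323). In Col-0 the call was lost after quantile normalization (0.15, adjusted p = 0.192), without the trend (adjusted p = 0.0888), with only the compared groups (adjusted p = 0.172), without WL replicate 2 (0.17, adjusted p = 0.202) and without WL+FR replicate 4 (0.21, adjusted p = 0.182). In *wox4* it was lost after quantile normalization (0.20), without WL replicate 6 (0.29) and without WL+FR replicate 8 (0.31).

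Other repressors with the core stayed below the threshold in every genotype or all but one. *IAA12* (*BODENLOS*), the partner of ARF5 in the embryo, *IAA26*, *IAA28* and *IAA10* had log2 fold changes between -0.09 and 0.32 in *rev-5*, of 0.38 to 0.45 in *wox4* and of 0.36 to 0.70 in Col-0, where the adjusted p were 0.0568 to 0.104 (limma). *IAA18*, which falls outside the rule for named genes and was picked after its values were seen, had 24.23 and 22.40 TPM in *rev-5* in WL+FR against 23.69 and 23.51 TPM in WL, 24.74 and 24.06 TPM in *wox4* in WL+FR against 20.67 and 21.73 TPM in WL, and 22.39 and 23.93 TPM in Col-0 in WL+FR against 22.88 and 23.32 TPM in WL. Its log2 fold change was -0.02 ± 0.07 in *rev-5*, 0.19 ± 0.07 in *wox4* and 0.00 ± 0.07 in Col-0 (limma, lowest adjusted p = 0.0805), with the standard error of *IAA2*. *IAA27* was called in *wox4* alone (0.36 ± 0.10, adjusted p = 0.0405, against 0.21 in *rev-5* and 0.13 in Col-0). That call was lost without any of the 4 *wox4* libraries (0.28 to 0.44), with FPKM (0.30), quantile normalization (0.20) and voom (0.30), without the trend and with only the compared groups (adjusted p = 0.0322 to 0.283 over all alternatives). The difference in response between *wox4* and Col-0 was 0.23 ± 0.15 (limma, adjusted p = 0.809). *IAA27* overlaps *AT4G29070* (37.17 to 47.81 TPM) on the opposite strand. *IAA5* was listed at 0 in 6 libraries and reached at most 2.39 TPM.

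Of the repressors without the core, *IAA30* and *IAA33* could be tested. *IAA30*, whose protein is long-lived, had 1.36 to 3.36 TPM over all libraries and log2 fold changes of 0.24 in *rev-5*, -0.02 in *wox4* and -0.18 in Col-0. *IAA33* had 0.40 and 1.75 TPM in *rev-5* in WL+FR against 0.43 and 0.65 TPM in WL, 0.85 and 1.12 TPM in *wox4* in WL+FR against 0.62 and 0.00 TPM in WL, and 0.43 and 0.23 TPM in Col-0 in WL+FR against 1.41 and 0.85 TPM in WL. It was the only tested member with both WL+FR replicates below both WL replicates in Col-0, where 17.2% of all tested genes were. Its log2 fold changes of 0.36 ± 0.36, 0.64 ± 0.36 and -0.68 ± 0.36 were not called, and at these levels no more than 8 fragments stood behind a value.

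**Figure D3:**
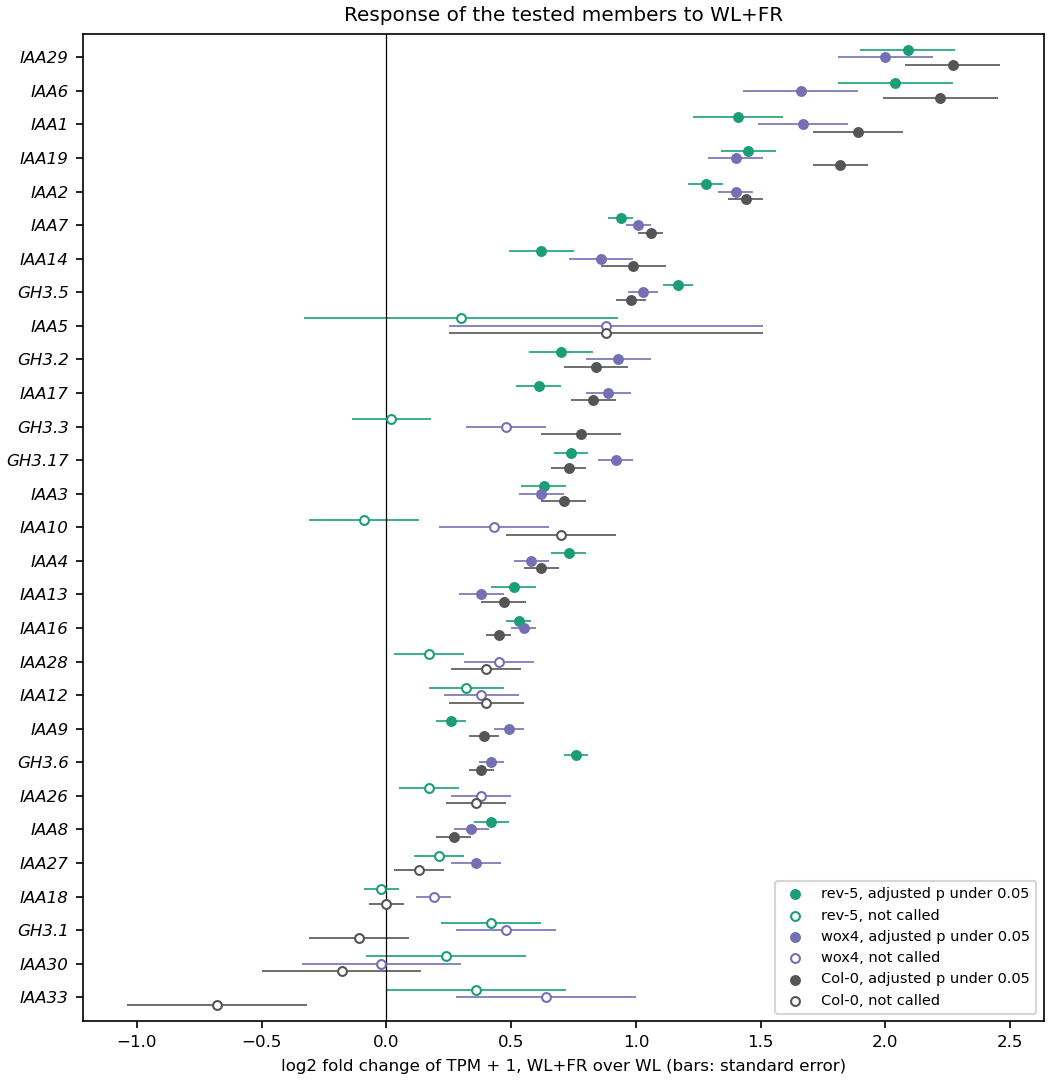
Log2 fold change of TPM + 1, WL+FR over WL, of each of the 29 tested members in rev-5 (green), the libraries labelled wox4 (violet) and Col-0 (grey), ordered by the change in Col-0 (bars: standard error; filled points: limma adjusted p under 0.05; open points: not called). The 5 largest changes in Col-0, IAA29 to IAA2, lie between 1.28 and 2.27 in all 3 genotypes, and the widest bars belong to IAA5, with a standard error of 0.63.

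Of the 6 *GH3* genes 4 rose in every genotype, *GH3.3* was called in Col-0, and *GH3.1* was not called. *GH3.5* (AT4G27260, chr4:13653579-13656285), whose enzyme also accepts salicylic acid, had 86.43 and 86.41 TPM in *rev-5* in WL+FR against 38.48 and 37.30 TPM in WL. It had 79.38 and 84.57 TPM in *wox4* in WL+FR against 40.46 and 38.84 TPM in WL. In Col-0 it had 85.29 and 86.96 TPM in WL+FR against 44.92 and 41.69 TPM in WL. All 6 WL+FR libraries thus lay within a narrow band, with log2 fold changes of 1.17 ± 0.06 in *rev-5*, 1.03 ± 0.06 in *wox4* and 0.98 ± 0.06 in Col-0 (limma, highest adjusted p = 3.77e-06). *GH3.17*, which prefers glutamate as the partner of auxin, rose by 0.74 in *rev-5*, 0.92 in *wox4* and 0.73 in Col-0, and *GH3.2* rose by 0.70, 0.93 and 0.84. The call of *GH3.2* was lost in *rev-5* without WL replicate 9 (0.63) and in Col-0 when only its 4 libraries were fitted (adjusted p = 0.0727).

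*GH3.6* (AT5G54510, chr5:22130964-22133688), also named *DFL1*, an enzyme whose overexpression shortens the hypocotyl in light, showed the clearest difference between genotypes. It had 106.45 and 108.89 TPM in *rev-5* in WL+FR against 61.34 and 65.43 TPM in WL, 105.61 and 106.62 TPM in *wox4* in WL+FR against 76.30 and 81.95 TPM in WL, and 108.80 and 109.92 TPM in Col-0 in WL+FR against 86.61 and 81.21 TPM in WL. The 6 WL+FR libraries were alike, and both *rev-5* libraries in WL lay below the other 4 in WL. In WL, *GH3.6* was lower in *rev-5* than in Col-0 by a log2 fold change of -0.40 ± 0.05 (limma, adjusted p = 0.00305), the only member called in this comparison, where 2.06% of all tested genes were called lower. The call was lost when only the 4 compared libraries were fitted (adjusted p = 0.126, with 0.000239 to 0.126 over all alternatives), and held without each of them in turn, at -0.35 to -0.44. The response to WL+FR was 0.76 ± 0.05 in *rev-5*, 0.42 ± 0.05 in *wox4* and 0.38 ± 0.05 in Col-0. The difference in response between *rev-5* and Col-0 was 0.38 ± 0.08 and did not pass the threshold in limma (adjusted p = 0.102), while voom on approximated fragments called it (0.37, adjusted p = 0.0227, with 0.0227 to 0.339 over all alternatives).

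*GH3.3* (AT2G23170, chr2:9863855-9866562), named after its values were seen, had a lower level than the other *GH3* members that were called. It had 8.34 and 5.74 TPM in *rev-5* in WL+FR against 7.09 and 6.55 TPM in WL, so that these groups overlapped. In *wox4* it had 8.66 and 9.67 TPM in WL+FR against 6.30 and 6.28 TPM in WL, and in Col-0 it had 10.30 and 12.46 TPM in WL+FR against 5.76 and 6.68 TPM in WL. Both Col-0 libraries in WL+FR lay above all others. The log2 fold change was 0.02 ± 0.16 in *rev-5*, 0.48 ± 0.16 in *wox4* and 0.78 ± 0.16 in Col-0 (limma, adjusted p = 0.962, 0.0709 and 0.00928). The call in Col-0 was lost without WL replicate 1 (0.68, adjusted p = 0.0727), without WL+FR replicate 4 (0.65, adjusted p = 0.0708) and with only the compared groups (adjusted p = 0.0686). The difference in response between *rev-5* and Col-0 was -0.75 ± 0.23 (limma, adjusted p = 0.325, with 0.152 to 0.558 over all alternatives), and that between *wox4* and Col-0 was -0.30 ± 0.23 (adjusted p = 0.834). In WL+FR, *GH3.3* stood at -0.64 ± 0.16 in *rev-5* over Col-0 (adjusted p = 0.0703), which passed the threshold without WL+FR replicate 11 of *rev-5* (-0.87, adjusted p = 0.0415) and had an adjusted p of 0.0222 to 0.325 over all alternatives. *GH3.1* had 0.73 to 1.74 TPM in all libraries and was not called in any comparison.

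**Figure D4:**
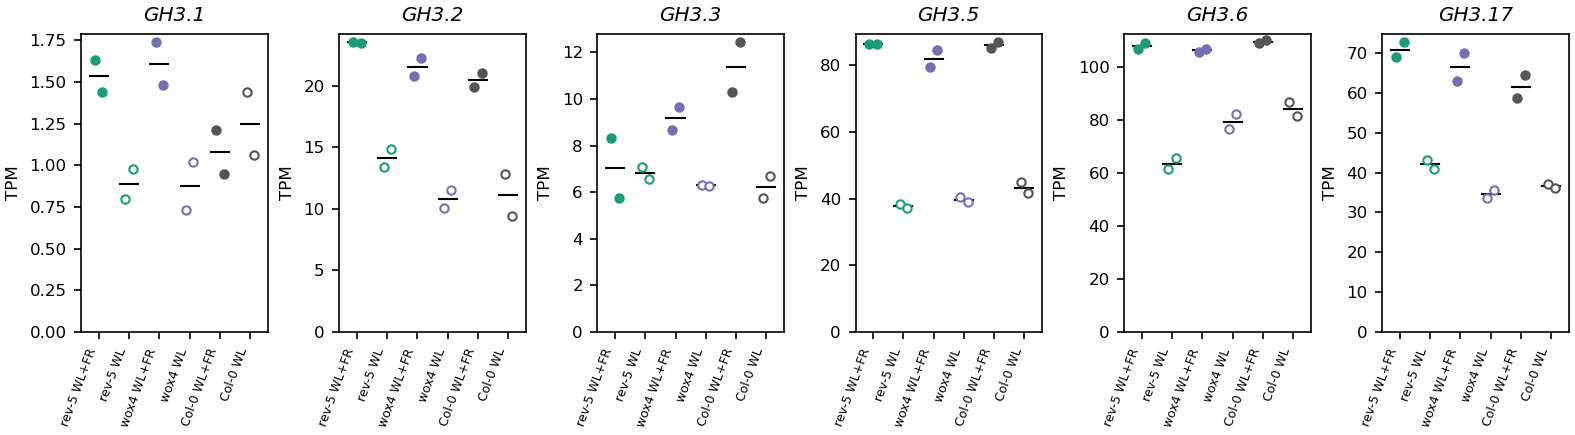
TPM in each library of the 6 GH3 genes, on linear axes from 0 (filled points: WL+FR; open points: WL; green: rev-5; violet: libraries labelled wox4; grey: Col-0; line: mean of 2 replicates). GH3.5 sits between 79.38 and 86.96 TPM in all WL+FR libraries, GH3.6 is lowest in rev-5 in WL with 61.34 and 65.43 TPM, and for GH3.3 the rev-5 points in WL+FR (8.34 and 5.74 TPM) span those in WL.

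Responses were compared as the difference between the response of *rev-5*, or of the libraries labelled *wox4*, and that of Col-0, and both differences share the Col-0 libraries. limma called 0 of the 29 members for *rev-5* (5 at an unadjusted p under 0.05, against 9.19% of all tested genes, with 0.165% called higher and 0.23% lower) and 0 for *wox4* (2 at an unadjusted p under 0.05, against 6.93% of all tested genes, with 0.0599% called higher and 0.045% lower). voom called 1 member for *rev-5*, *GH3.6*, and 0 for *wox4*. The differences of the 29 members ranged between -0.80 and 1.03 for *rev-5* and between -0.55 and 1.31 for *wox4*, with the highest values at *IAA33*, which has less than 2 TPM. Their median was -0.12 for *rev-5* and 0.02 for *wox4*, against 0.02 and 0.04 over all tested genes. Beside *GH3.6*, the members with an unadjusted p under 0.05 for *rev-5* were *GH3.3*, *IAA10* (-0.80 ± 0.31), *GH3.5* (0.19 ± 0.08) and *IAA19* (-0.37 ± 0.16). For *wox4* they were *IAA19* (-0.41 ± 0.16) and *IAA33* (1.31 ± 0.51).

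Levels were also compared with Col-0 within each light. In WL, *rev-5* had *GH3.6* lower as given above and 0 members higher in limma (2.61% of all tested genes called higher). 10 members had an unadjusted p under 0.05, against 18.6% of all tested genes, and voom called 0 higher and 1 lower. Without WL replicate 1 of Col-0, *IAA17* (0.50, adjusted p = 0.0162) and *IAA29* (0.79, adjusted p = 0.0465) were called higher in *rev-5*. In WL+FR limma called 0 members in *rev-5* (1.77% of all tested genes called higher and 1.76% lower, with 6 members against 17% of all at an unadjusted p under 0.05), and voom called *GH3.3* and *IAA9* lower (-0.71 and -0.20). Without WL+FR replicate 3 of Col-0, *IAA2* was called lower in *rev-5* (-0.30, adjusted p = 0.0267). For the libraries labelled *wox4*, limma and voom called 0 members in WL (0.165% of all tested genes higher and 0.0999% lower, with 4 members against 9.26% of all at an unadjusted p under 0.05) and 0 in WL+FR (0.634% higher and 0.42% lower, with 2 members against 14.5% of all). The largest of these differences at an unadjusted p under 0.05 were *IAA6* (0.68 ± 0.23), *IAA29* (0.60 ± 0.19) and *IAA19* (0.53 ± 0.11) in WL, the last with 13.36 and 11.67 TPM in *wox4* against 8.36 and 8.33 TPM in Col-0 (adjusted p = 0.124).

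**Figure D5:**
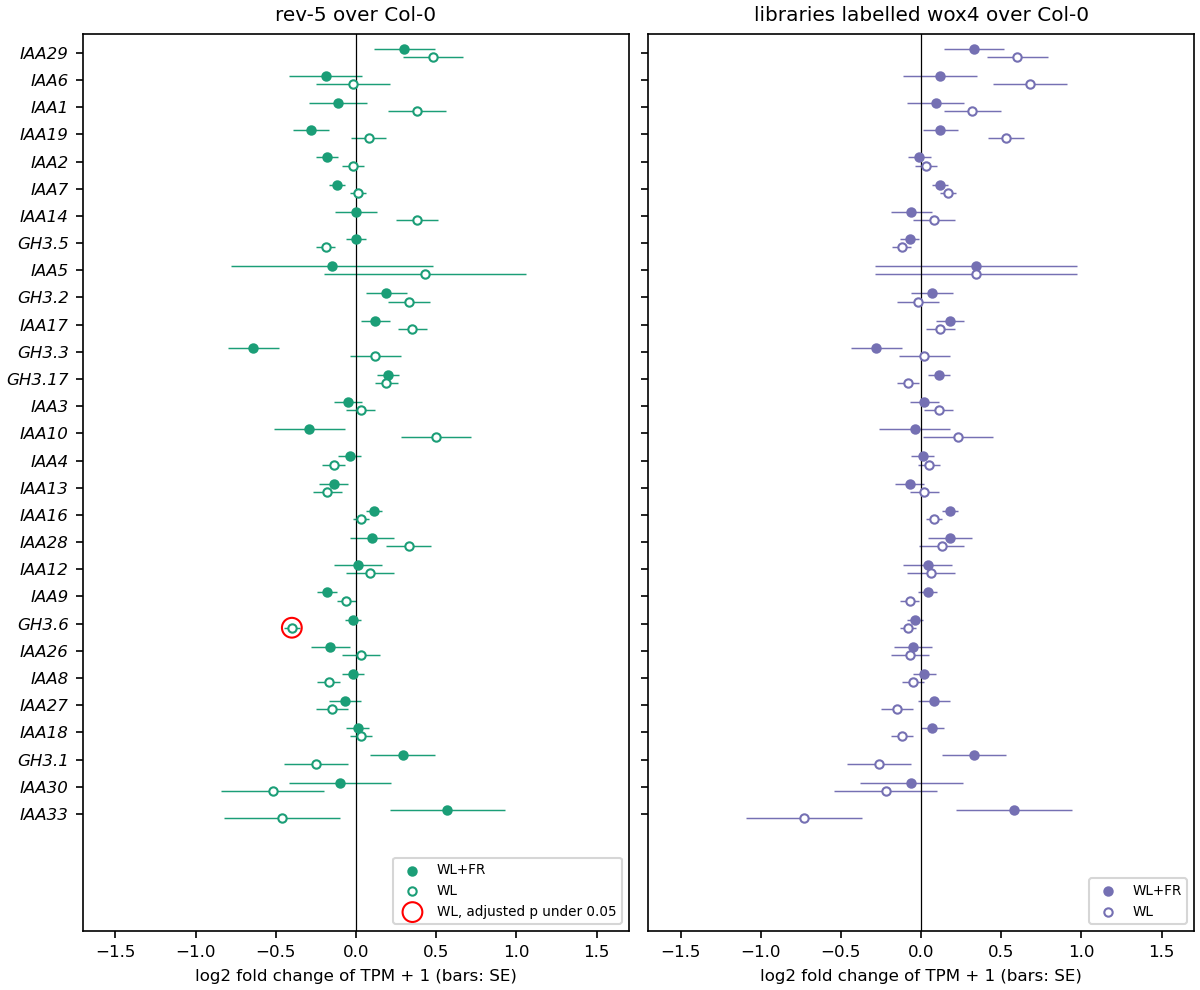
Log2 fold change of TPM + 1 of the 29 tested members in rev-5 over Col-0 (left) and in the libraries labelled wox4 over Col-0 (right), in WL+FR (filled points) and WL (open points), with standard errors. The red ring marks GH3.6 in rev-5 in WL at -0.40, the only difference with a limma adjusted p under 0.05.

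6 members lie next to another one in the genome. *IAA3* and *IAA17* on chromosome 1 lie 6388 bases apart, *IAA2* and *IAA7* on chromosome 3 lie 12510 bases apart, and *IAA14* and *IAA1* on chromosome 4 lie 10732 bases apart. In each pairing the neighbours are transcribed away from each other and have 0 annotated protein-coding genes between them. No other member lies within 20000 bases of another, and the close relatives *IAA1* and *IAA2*, like *IAA7* and *IAA14*, stand in different pairings. All 6 of these genes are among the 18 of 29 tested members called higher in WL+FR in every genotype. A link to their position was not tested.

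The auxin response elements TGTCTC and TGTCGG, which ARFs bind, the G-box CACGTG and the related CACATG, which PIFs bind, and AATNATT, a core of sites of homeodomain leucine zipper factors, were searched on both strands of the 250 bases before each annotated start. TGTCTC was found in 12 of 34 members (35.3%) and in 10.9% of the 27443 protein-coding genes, and TGTCGG in 6 members (17.6%) and in 4.16% of all. CACATG was found in 8 members (23.5%) and in 11.1% of all, CACGTG in 5 (14.7%) and in 6.49%, and AATNATT in 10 (29.4%) and in 30.5%. Among the 19 members called in Col-0, 7 held TGTCTC (36.8%), against 2 of the 10 that were tested and not called (20.0%), TGTCGG was in 3 of 19 (15.8%) against 3 of 10 (30.0%), CACGTG in 3 (15.8%) against 1 (10%), CACATG in 6 (31.6%) against 1 (10%) and AATNATT in 5 (26.3%) against 3 (30.0%). TGTCTC was in 10.6% of the protein-coding genes called higher in Col-0 and in 10.6% of all tested ones, and CACATG in 13.2% and 11.5%. A match is a string of letters and no proof of binding. The windows follow for the 4 members with the largest called response in Col-0 and for *IAA18*, which was not called. They are from TAIR10.1 (RefSeq) and run 5′ to 3′ on the strand of the gene, with every match to the 5 motifs in capitals.
IAA29 (chr4:15583082-15583331, plus strand): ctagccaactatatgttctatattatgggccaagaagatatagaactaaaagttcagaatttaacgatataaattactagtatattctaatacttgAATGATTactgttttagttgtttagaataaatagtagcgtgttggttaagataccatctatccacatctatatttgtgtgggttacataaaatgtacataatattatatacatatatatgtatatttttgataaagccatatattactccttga
IAA6 (chr1:19673653-19673902, minus strand): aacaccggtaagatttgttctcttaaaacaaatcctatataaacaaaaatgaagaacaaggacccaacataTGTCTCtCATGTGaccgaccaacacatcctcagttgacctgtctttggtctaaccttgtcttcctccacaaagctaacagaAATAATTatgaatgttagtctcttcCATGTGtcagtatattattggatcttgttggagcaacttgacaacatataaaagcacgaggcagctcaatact
IAA1 (chr4:8360746-8360995, plus strand): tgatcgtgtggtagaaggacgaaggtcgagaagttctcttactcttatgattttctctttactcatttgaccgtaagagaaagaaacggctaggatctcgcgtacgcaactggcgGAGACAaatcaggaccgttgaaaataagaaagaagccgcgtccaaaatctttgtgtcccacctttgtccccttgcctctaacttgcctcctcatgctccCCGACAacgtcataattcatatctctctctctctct
IAA19 (chr3:5263751-5264000, plus strand): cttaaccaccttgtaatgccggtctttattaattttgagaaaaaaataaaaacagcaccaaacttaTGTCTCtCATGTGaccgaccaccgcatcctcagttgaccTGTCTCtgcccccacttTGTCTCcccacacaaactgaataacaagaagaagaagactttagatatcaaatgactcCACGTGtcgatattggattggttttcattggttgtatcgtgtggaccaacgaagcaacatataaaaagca
IAA18 (chr1:19304831-19305080, plus strand): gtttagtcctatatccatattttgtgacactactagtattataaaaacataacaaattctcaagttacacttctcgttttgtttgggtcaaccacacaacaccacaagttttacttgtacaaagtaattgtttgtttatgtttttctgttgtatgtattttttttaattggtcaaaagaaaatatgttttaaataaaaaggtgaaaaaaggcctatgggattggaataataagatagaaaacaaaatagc
The window of *IAA19* was the richest, with 3 matches to TGTCTC at 184, 145 and 128 bases before the start, 1 CACGTG at 70 and 1 CACATG at 177. *IAA6*, its relative, holds TGTCTC and CACATG next to each other at 179 and 172 bases, where *IAA19* has the same succession at 184 and 177. *IAA1* holds TGTCTC at 135 and TGTCGG at 36 bases. *IAA29*, with the largest log2 fold change of TPM + 1 in Col-0, holds no match to the ARF and PIF motifs in these 250 bases. It holds 1 match to AATNATT at 154, and *IAA18* holds none of the 5. Of all matches in the members' windows, 1 pairing overlapped, the CACATG matches on either strand of *IAA3*.

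The genes around the members in the auxin pathway changed less evenly. The lists of these genes were read from the same fits. Over all tested genes, 11% were called higher in WL+FR in *rev-5*, 15.4% in *wox4* and 13.3% in Col-0, to be set beside each count below. Of the enzymes of auxin synthesis, 4 of 9 tested genes rose in *rev-5*, 4 in *wox4* and 5 in Col-0, and no other gene of the list had an unadjusted p under 0.05 in limma. *YUC8*, which makes auxin from indole-3-pyruvate, had 31.97 and 32.95 TPM in *rev-5* in WL+FR against 6.71 and 6.65 TPM in WL, 32.72 and 33.03 TPM in *wox4* in WL+FR against 7.46 and 6.32 TPM in WL, and 27.52 and 28.84 TPM in Col-0 in WL+FR against 6.07 and 7.21 TPM in WL. Its log2 fold change of 1.94 ± 0.10 in Col-0 was followed by *YUC9* (1.38 ± 0.24) and *YUC2* (1.05 ± 0.15), while *TAA1*, which makes the substrate of the YUC enzymes, stood at -0.11 ± 0.24 and was not called.

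Of the 6 receptors, *AFB5* rose in *rev-5* (0.41), *wox4* (0.28) and Col-0 (0.33, limma adjusted p = 0.00385). *TIR1* stood at -0.07 in *rev-5* and -0.13 in *wox4*, not called, and fell in Col-0 (-0.30, limma adjusted p = 0.0271). Of the 15 *ARF* genes 8 rose in each genotype, led in Col-0 by *ARF10* (0.48), *ARF8* (0.43) and *ARF4* (0.42), and limma called no *ARF* gene lower, with 9 at an unadjusted p under 0.05 in Col-0. Of 5 TOPLESS genes limma called 0 in *rev-5* (2 at an unadjusted p under 0.05), 1 in *wox4* (*TPL*, 0.28) and 2 in Col-0 (*TPL*, 0.30, and *TPR2*, 0.36). Of 8 tested genes for conjugate hydrolases and auxin oxidases, 2 rose in *rev-5*, 3 in *wox4* and 1 in Col-0, *IAR3* (0.55), which releases auxin from its alanine conjugate. The share in Col-0 (12.5%) was near that of all tested genes (13.3%). Of the 4 other *GH3* genes tested, *GH3.12*, an enzyme of salicylic acid synthesis, rose in *rev-5* (1.38), *wox4* (1.49) and Col-0 (1.36), and *GH3.9* fell in each (-0.94, -0.80 and -0.81). *GH3.10* rose in *rev-5* (0.41) and *wox4* (0.25) and stood at 0.13 in Col-0. For *rev-5* and *wox4*, the difference in response from Col-0 was called for 0 genes of these lists and of auxin synthesis (limma, smallest adjusted p = 0.358).

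Some markers of organs and cell types differed with the light. The 5 root markers, none at 0 in any library, summed to 892.2 to 1097.0 TPM in WL+FR against 627.4 to 854.3 TPM in WL, a sum to which *PYK10* gave 510.15 to 828.92 TPM. *PYK10* (0.20 in *rev-5*, 0.45 in *wox4* and 0.46 in Col-0) and *TIP2;3* (0.87, 1.07 and 0.84) were called higher in each genotype, while *EXPA7*, *COBL9* and *PRP3* were called in none and stood at -0.40, -0.08 and 0.10 in Col-0. Of the 5 xylem markers *CESA4* was listed at 0 in all 12 libraries, and the other 4 summed to 148.0 to 168.9 TPM in WL+FR against 83.8 to 126.3 TPM in WL, with 3 of 4 called higher in *rev-5* and in *wox4* and 2 in Col-0. The 4 green tissue markers summed to 24316.5 to 26659.8 TPM in WL+FR against 25589.0 to 30139.3 TPM in WL, with genes called in both directions. Their response also differed between genotypes. For the difference in response from Col-0, limma called 2 of the 4 lower in *rev-5* (smallest adjusted p = 0.000826). In *wox4* it called 1 lower (adjusted p = 0.0168). Over all tested genes 0.23% and 0.045% were called lower. Root, xylem and shade markers had 0 such calls. In WL, 2.61% of all tested genes were called higher in *rev-5* than in Col-0. Among the markers these were 2 of 5 root markers, 3 of 4 green tissue markers and 1 of 4 xylem markers, beside the lower *GH3.6*. In WL+FR, *rev-5* had 1 root and 1 green tissue marker higher and 1 green tissue marker lower (1.77% and 1.76% of all tested genes). The libraries labelled *wox4* had 1 green tissue and 1 xylem marker higher in WL (0.165% of all). In WL+FR they had 1 green tissue marker higher and 1 lower (0.634% and 0.42%). The part of these markers in the levels of the *Aux/IAA* and *GH3* genes was not tested. The markers of shade itself rose in 5 of 6 cases in each genotype, among them *HFR1* (2.81, 3.16 and 3.3) and *ATHB2* (1.82, 1.98 and 2.09, each in *rev-5*, *wox4* and Col-0).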

How the data were processed

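12 whole-seedling RNA-seq libraries were used, 2 for each of *rev-5*, *wox4* and Col-0 in WL+FR and in WL. The authors deposited FPKM per gene with confidence bounds, 1 Cufflinks-style table on TAIR10 per library. The submitters' processing notes name FastQC, Bowtie2 and Cufflinks, while the study's methods give HISAT2, and whether strand was used in counting is not given in the sources used here. Values of 0 can be failed estimates. Since the tables hold no counts, the study's count test was not used.

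FPKM were scaled to TPM (a library sum of 1e6), 2 repeated gene identifiers were summed, and log2(TPM + 1) was fitted for the 20020 genes that averaged 0.5 TPM or more over all libraries with limma 3.58.1 (R 4.3.3), with 6 group means and a mean-variance trend, and Benjamini-Hochberg adjustment over all tested genes at 0.05. The groups' replicates are separate biological samples, and the replicate numbers pair none of them. Genes named with values per library were up to 8 called members for Col-0 in shade and up to 4 for each other comparison, by the size of the log2 fold change with replicates that do not overlap, and the 3 most abundant members. From the pathway lists, up to 3 called genes were named, and genes outside the rule were chosen after their values were seen. Members and lists were chosen with earlier results of these data known. The steps were tested on simulated data.

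Alternatives were a pseudocount of 0.1 TPM, other filters on low values, FPKM, quantile normalization, no trend, a fold over 2 with an adjusted p under 0.01, only the compared groups, voom on fragments approximated from the bounds, and leaving out each replicate. Relative depth and fragments were approximated from the bounds and cover counting error only. Sequences were read from TAIR10.1 (RefSeq), where all 34 members have the position of the deposited tables. The degron core was searched in coding DNA. Python 3.11.15, pandas 2.3.3 and matplotlib 3.10.9 were used.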

Additional observations from a re-analysis of the deposited data

How the results depend on the processing

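No member was called lower in WL+FR than in WL under any alternative run, by limma or voom. Few would be at the low shares of all tested genes called lower in the main fit. The number called higher at a fold over 2 and an adjusted p under 0.01 was 6 in *rev-5*, 7 in *wox4* and 6 in Col-0, and leaving out 1 replicate at a time gave 16 to 17, 16 to 18 and 17 to 21 calls. For the difference in response between *rev-5* and Col-0, voom called 1 member higher (*GH3.6*). In *rev-5* against Col-0 in WL, 1 member was called higher with only genes above 0 in all libraries (*IAA17*, 0.35, adjusted p = 0.0442, limma) and 0 to 2 without 1 replicate. *GH3.6* was the 1 member called lower there, with 0 at the stricter threshold, 0 with only the compared groups and 1 to 1 without 1 replicate. In WL+FR, 1 member was called lower with only genes above 0 (*GH3.3*, adjusted p = 0.047, limma), 2 by voom and 0 to 1 without 1 replicate. The uncalled response of *GH3.3* in *rev-5* (0.02) turned to -0.01 with FPKM, -0.11 with quantile normalization, -0.03 with voom, and lay between -0.21 (without WL+FR replicate 11) and 0.26 (without WL+FR replicate 12) without 1 replicate, with -0.03 without WL replicate 10. Over the 62 single-member results followed, which leave out *IAA17*, *IAA29*, *IAA2* and *IAA9* in the comparisons with Col-0, 728 of 814 alternative values kept direction and side of the threshold, 77 lost the call, 4 gained one and 5 changed sign. Many of the lost calls came from the stricter threshold, which keeps the estimates of the main fit and changes the cutoff only. The causes of these changes were not tested. The replicate numbers run on over the libraries and do not say which were grown side by side, so no paired analysis was made. With 2 replicates a group and without counts, moderate differences, also of well expressed members, can be missed.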
